A study of Homo sapiens with 35 samples.

Results

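The 8 genes described here encode proteins of the nuclear lamina and of the nuclear envelope to which the lamina is attached. They are LMNB1, LMNB2 and LMNA, which encode the lamins, LBR, TMPO and LEMD3, which encode proteins of the inner nuclear membrane, SUN1, which encodes a protein that spans that membrane, and BANF1, which encodes a small DNA-binding protein that links chromatin to the membrane. The rule that picks them uses names and hg19 positions and no measured value, though it was written with earlier results of these data known. For each gene the 100-kb bin that holds its position (the gene bin) was described apart from its surroundings, the 5 bins on each side of it, so that 88 of 26584 bins with values are covered. Their contacts with the lamina were read from DamID of single KBM7 cells. All cells belong to 1 group: clone 5-5 of KBM7, a human leukaemia line, diploid (2N), carrying the bacterial adenine methylase Dam fused to lamin B1 and treated with 0.5 nM Shield1, the ligand that stabilises the fusion, for 15 h. The smallest 2% of cells that were positive for both Fucci cell-cycle reporters were sorted singly. The 5-5 cells descend from 1 clone, and there is no other genotype, no untreated group and no cell with unfused Dam among the values used here. A column of values was matched to 32 of 35 labelled samples, and cells are named below by the sample number in their label. The other 3 samples were not analysed here.

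The lamina is a mesh of lamin filaments under the inner nuclear membrane. Large, mostly inactive stretches of the genome, the lamina-associated domains, touch it, while active genes tend to lie away from it. In DamID, GATC sequences near the Dam fusion gain a methyl group, and the methylated sites are then cut, amplified and sequenced, so a gene can be measured here as a piece of DNA at the lamina while its own protein helps to build that structure. Expression of the 8 genes was not measured.

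The values were ratios: in each cell, the reads observed in a 100-kb bin were divided by the reads expected there (OE), and an OE of 1 or more counted as a contact. A bin in contact in 50% or more of the 32 cells is called frequently contacted below. The reads per cell, recovered from the steps between low values, ran from 985 to 258225 with a median of 120164. In 3 cells, numbers 13, 15 and 17, they were at most 1755, and the other 29 cells had at least 40279. On average 26.3% ± 8.08 (SD, n = 32 cells) of the bins of a cell were in contact, and 28.6% ± 3.99 in the 29 deeper cells. The cells are the samples tested, and nothing in the labels says that they came from separate cultures, so p-values measure the spread between these cells only.

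The promoters of 3 of the genes are shown, because GATC sites are what the method reads and because LMNB1 and LBR are the members whose promoters held such a site, while TMPO had the most contacted surroundings. The sequences are the 250 bases before the start of each gene on its own strand, from RefSeq on GRCh38.p14, and GATC, the only motif searched, which reads the same on both strands, is in capitals. Their coordinates are chr5:126776373-126776622 on the plus strand for LMNB1, chr1:225428822-225429071 on the minus strand for LBR and chr12:98515323-98515572 on the plus strand for TMPO. These are not on the hg19 scale of the bins.
LMNB1: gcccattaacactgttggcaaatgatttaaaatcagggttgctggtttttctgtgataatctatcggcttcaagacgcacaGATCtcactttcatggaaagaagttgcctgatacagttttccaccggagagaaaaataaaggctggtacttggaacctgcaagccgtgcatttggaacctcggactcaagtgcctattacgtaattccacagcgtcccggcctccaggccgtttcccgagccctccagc
LBR: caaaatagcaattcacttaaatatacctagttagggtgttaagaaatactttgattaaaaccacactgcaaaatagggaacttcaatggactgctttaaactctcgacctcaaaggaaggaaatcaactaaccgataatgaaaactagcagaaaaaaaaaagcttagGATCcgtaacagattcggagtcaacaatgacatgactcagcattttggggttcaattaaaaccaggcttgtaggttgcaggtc
TMPO: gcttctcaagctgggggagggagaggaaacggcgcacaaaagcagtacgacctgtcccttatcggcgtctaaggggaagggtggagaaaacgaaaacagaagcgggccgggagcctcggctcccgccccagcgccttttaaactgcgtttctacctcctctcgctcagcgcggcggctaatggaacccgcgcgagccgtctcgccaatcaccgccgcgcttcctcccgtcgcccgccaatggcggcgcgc
RefSeq promoters were found for 7 of the 8 members, SUN1 not being listed. LMNB1 and LBR held 1 GATC site each and the promoters of LMNB2, LMNA, TMPO, LEMD3 and BANF1 held no match in this window. Of 27303 promoters of the same length in that table, 35.8% held a GATC. The G and C content was 48.4% for LMNB1, 36.8% for LBR and 64.8% for TMPO, against a median of 58% over all promoters.

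The bins that hold the genes themselves were almost free of lamina contact. In 7 of the 8 gene bins no cell reached an OE of 1, and in the eighth, that of LBR, 1 cell did (cell 28), where 8.4 cells of 32 were expected from the contact shares of the cells. A count of 0 of 32 cells allows a contact frequency of up to 9.38%, for counting error only. All 8 gene bins were in contact less often than expected by the Poisson-binomial test, with a Benjamini-Hochberg adjusted p over all bins of 0.000156 for the 7 bins without a contact and of 0.00114 for LBR. Of all 26584 bins, 54.5% were called in contact less often in the same test and 31.5% more often, and 42.0% were in contact in no cell. Contact in no cell was therefore common in the genome, and the median bin was in contact in 6.25% of the cells.

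The OE values of the gene bins were 0 in most cells, so their lowest and median values were 0 for all 8 genes. LBR had the highest, a mean OE of 0.162 ± 0.303 (SD, n = 32) that reached 1.23 in cell 28 and rested on 36 reads in 10 cells. TMPO followed with 0.0520 ± 0.145 and a highest value of 0.598 in cell 22, from 11 reads in 5 cells. LEMD3 had a mean OE of 0.0468 ± 0.159 and a highest value of 0.864 in cell 35, from 9 reads in 5 cells. These highest values came from a different cell for each of the 3 genes.
The bins of the B-type lamins had 5 reads each over all cells. LMNB2 had a mean OE of 0.0276 ± 0.0882 with a highest value of 0.334 in cell 11, and LMNB1 a mean OE of 0.0224 ± 0.0627 with a highest value of 0.244 in cell 33. SUN1 had 2 reads and a mean OE of 0.0133 ± 0.0591. BANF1 had 1 read, in cell 28, and a mean OE of 0.00383 ± 0.0217. LMNA had no read in any cell, and its position lies on the border of 2 bins. The bin after that border was in contact in no cell either, as was the bin after the border on which the position of LBR, and that of LEMD3, lies.
In the order of these means, LBR, TMPO, LEMD3, LMNB2, LMNB1, SUN1, BANF1 and LMNA, no difference between neighbours exceeded its SD between cells. The differences were not tested. The gap at the top, LBR minus TMPO, was an OE of 0.121 ± 0.338 (SD, n = 29 deeper cells), with LBR higher in 9 cells, TMPO higher in 3 and no difference in 17. In the 7 bins with a read, 1 read was worth an OE of 0.197 to 0.232 in the median deeper cell, so that an OE of 1 stood for about 4.31 to 5.08 reads, and the lower values cannot be ranked at this depth.

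**Figure D1:**
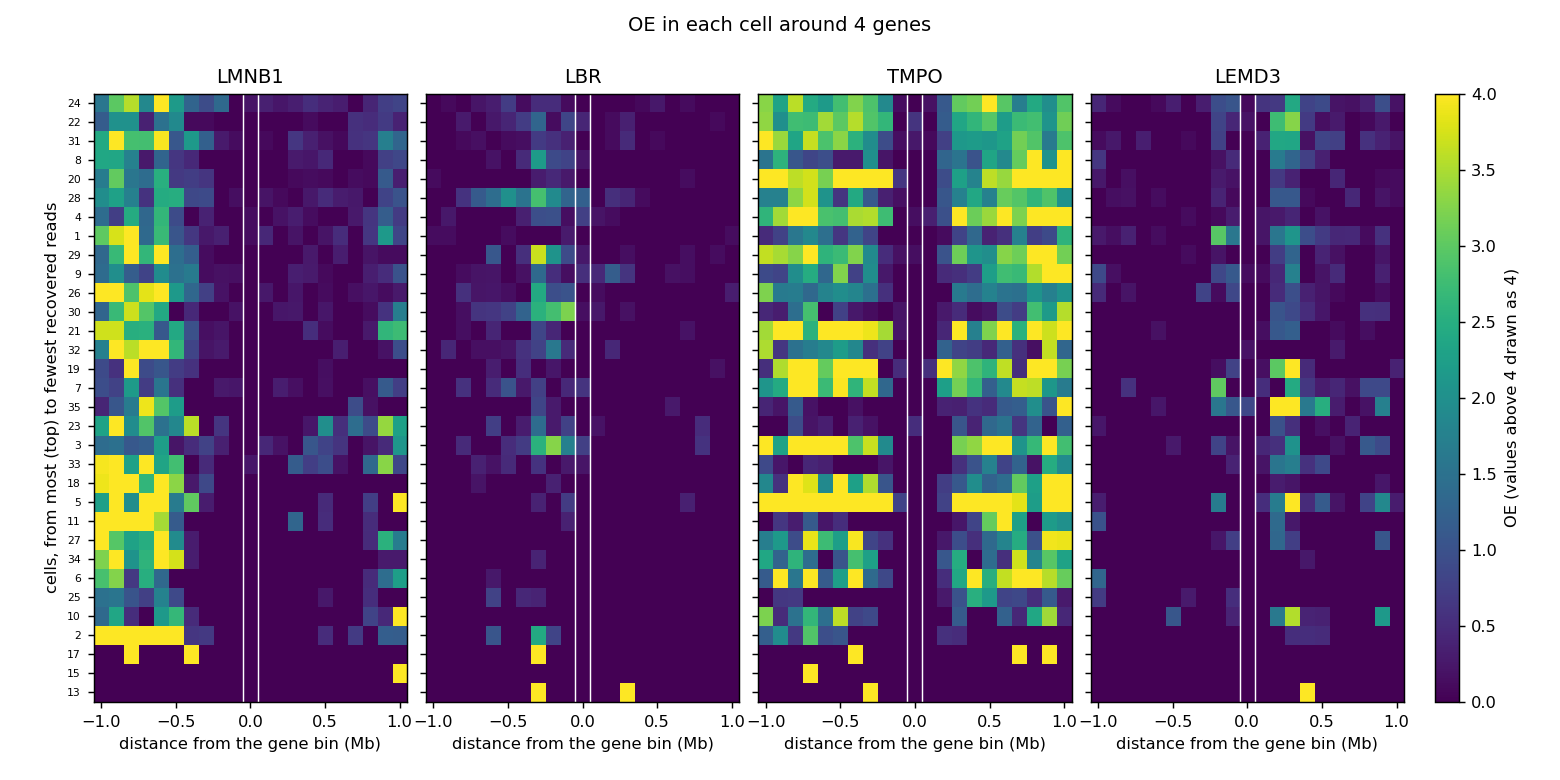
OE in every cell around LMNB1, LBR, TMPO and LEMD3, the genes with contacts within 0.5 Mb: each row is a cell, from most to fewest reads, each column a 100-kb bin by its distance in Mb from the gene bin (between the white lines), and the colour is the OE, with values above 4 drawn as 4. The gene bin is dark in nearly all cells, with a highest OE of 1.23 for LBR, and the flanks of TMPO are bright on both sides of it in 22 cells with a contact in both.

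The surroundings separated the genes. Those of LMNB2, LMNA, SUN1 and BANF1 held no contact in any of the 32 cells, as was true of 18.8% of all places in the genome. Those of LMNB1, LBR, TMPO and LEMD3 did. Set against the contact share of each cell in a limma fit over 26203 places, the surroundings of 7 genes were lower and those of TMPO were higher, where 54.3% of all places were lower and 35.5% higher. Set against the contact share of the gene's own chromosome in each cell, the counts were again 7 lower and 1 higher, with 54.0% and 34.8% over all places. For LMNB2, LMNA, SUN1 and BANF1, without any contact, these differences are the share of the cell or chromosome with its sign turned. Their sign was fixed, and their lower calls add nothing to the absence of contact. The median share of the surroundings in contact was 4.22% over the 8 genes and 14.4% over all places.

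**Figure D2:**
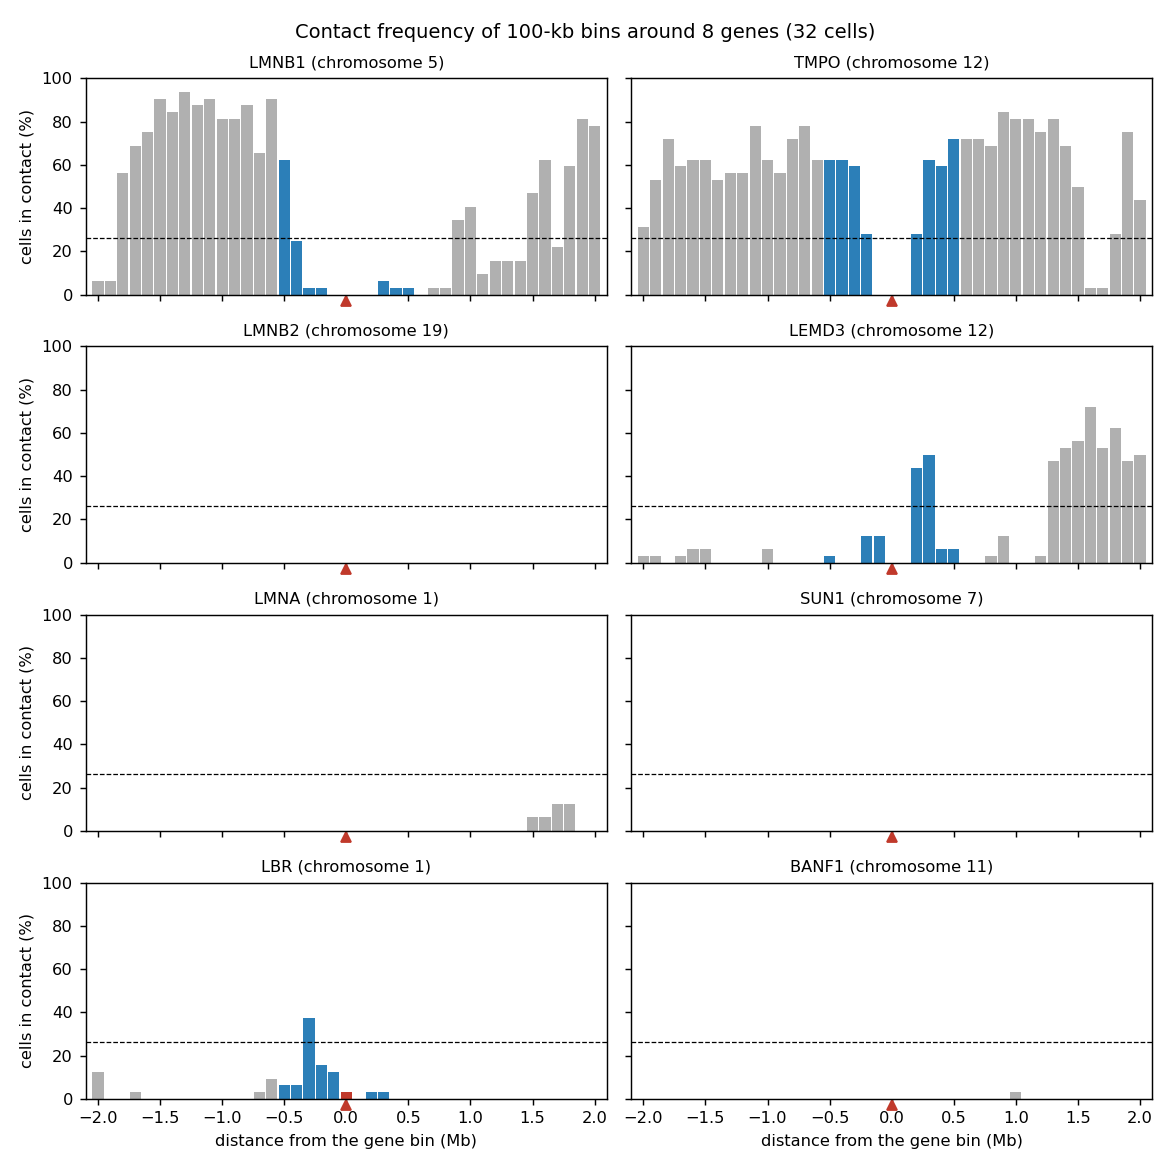
Contact frequency in the 100-kb bins around each gene, in percent of 32 cells, by distance in Mb from the gene bin (triangle), with bins of the surroundings in blue, bins beyond them in grey and a dashed line at the mean contact share of a cell. The frequency is 0 at the TMPO bin and its neighbours and reaches 62.5% and 71.9% within 0.5 Mb, while it stays at 0 within 0.5 Mb of LMNB2, LMNA, SUN1 and BANF1.

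LMNB1 encodes lamin B1, the protein to which Dam was fused in these cells. Its gene bin is chr5:126100001-126200000 and lies in a stretch of 0.4 Mb without any contact, from 126000001 to 126400000. The share of its surroundings in contact was 10.6% ± 9.48, with a lowest value of 0, a median of 10% and a highest value of 30%. It stayed at or below 30% in every cell and was above the share of the cell as a whole in 2 of 32. The difference from the contact share of the cell was -15.7 percentage points (SE 1.91, limma adjusted p = 2.14e-09), and from that of chromosome 5, which was 34.6%, it was -23.9 points (limma adjusted p = 3.91e-13).
The contacts near LMNB1 lay mostly on 1 side. Here and below, before and after a gene are by chromosome coordinate. In the 5 bins before the gene, 18.8% ± 17.6 of the bins were in contact, and in the 5 bins after it 2.50% ± 6.72. The side before was higher in 19 cells and the side after in 1, a difference of -16.3 points (after minus before, SE 3.24, limma adjusted p = 6.78e-05). In all, 2 of the 4 genes with contacts nearby were higher before the gene and 1 after it, where 25.8% and 25.6% of 21247 places were. Step by step, 20 cells were in contact in the bin 0.5 Mb before the gene, 8 at 0.4 Mb, 1 at 0.3 Mb, 1 at 0.2 Mb and 0 at 0.1 Mb. The outermost of these bins is the end of a domain of frequently contacted bins, from 124300001 to 125700000. Over its 1.4 Mb the mean contact frequency was 79.7%, the highest 93.8% and the mean OE 2.71 ± 1.27. LMNB1 thus sat 0.5 Mb from a domain that most cells held at the lamina, and its own bin had 5 reads in 32 cells.
How the surroundings of LMNB1 compared with the whole cell depended on how far they reached. With 3 bins on each side the difference was -24.2 points, with 5 it was -15.7, with 10 it was 3.36 (limma adjusted p = 0.0783) and with 20 it was 15.2 (limma adjusted p = 7.81e-09). The wider windows took in the domain before the gene. With 20 bins they also took in frequently contacted bins after it, such as that 1.9 Mb away, in contact in 81.3% of the cells. What turned the sign was not tested. The side difference was 0 with 3 bins on each side, and when any read counted as a contact the surroundings were -1.44 points from the share of the cell (limma adjusted p = 0.643).

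LMNB2, which encodes the other B-type lamin, showed no such domain nearby. Its gene bin is chr19:2400001-2500000, and the nearest frequently contacted bin was 19.9 Mb away. All 10 surrounding bins were at 0 contacts in all cells, with a highest OE of 0.565. The difference from the share of the cell was -26.3 points (SE 1.51, limma adjusted p = 7.86e-18), a value that LMNA, SUN1 and BANF1 share because all 4 have 0 contacts. For these 4 genes the difference from the cell or chromosome is that contact share with its sign turned. The limma fit then asks only whether the cell or chromosome had contacts. Against chromosome 19, of which only 2.28% ± 1.97 was in contact, the difference for LMNB2 was -2.28 points (limma adjusted p = 8.74e-04). Set against that share in place of the share of the cell, the gene bin of LMNB2 was not called (adjusted p = 1.00 by the Poisson-binomial test). Only 0.73 cells of 32 were then expected in contact, so a count of 0 could not be called lower. The missing call therefore does not show that the bin was like the rest of chromosome 19.
LMNA encodes lamins A and C, which arise from 1 gene by alternative splicing. Its gene bin, chr1:156000001-156100000, lies in a stretch of 4.3 Mb without a contact, from 153200001 to 157500000, with the nearest frequently contacted bin 14.2 Mb away. The highest OE in its surroundings was 0.405. Against chromosome 1, of which 18.4% was in contact, the difference was -18.4 points (limma adjusted p = 9.53e-15).
The 2 B-type lamin genes thus differed in their distance from contacted chromatin, and all 3 lamin genes lay in bins without contact.

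LBR encodes the lamin B receptor, a protein of the inner nuclear membrane that binds B-type lamins and heterochromatin and is also a sterol reductase. Its gene bin, chr1:225500001-225600000, was the only one of the 8 with a contact. The position of LBR lies on the border of this bin, and the bin after that border was in contact in no cell. In cell 28, where the gene bin was in contact with an OE of 1.23 from 10 reads, 50% of its surroundings were in contact as well, the highest share for LBR. When any read counted as a contact, the gene bin was in contact in 31.3% of the cells and was not called (adjusted p = 0.152). The share of its surroundings was 8.44% ± 12.7, with a lowest value and a median of 0, and 18 of 32 cells had none. It was -17.9 points from the share of the cell (SE 2.50, limma adjusted p = 4.25e-08) and -9.92 points from that of chromosome 1 (limma adjusted p = 1.33e-04), which became -1.37 when any read counted (limma adjusted p = 0.668).
The contacts near LBR lay mostly before it by coordinate, on the side of DNAH14 in the RefSeq gene order. As LBR is on the minus strand, this is the side away from its promoter. The 5 bins before the gene had a share of 15.6% ± 24.7 and the 5 after it 1.25% ± 4.92, a difference of -14.4 points (SE 4.33, limma adjusted p = 5.40e-03). The side before was higher in 12 cells and the side after in none of the 32. The bin 0.3 Mb before the gene was in contact in 12 cells, that at 0.2 Mb in 5, that at 0.1 Mb in 4 and the gene bin in 1. Contacts were thus fewer in each bin nearer the gene over this distance only. The bin at 0.3 Mb was the most often contacted of the 10 surrounding bins, so the frequency did not keep rising farther from the gene. None of these bins was frequently contacted, and the nearest that was lay 4.8 Mb away. The gene bin minus its surroundings was -5.31 points (SE 2.52, limma adjusted p = 0.112), which did not pass the test. The mean OE of the surroundings was 0.517 ± 1.12 over 32 cells and 0.292 ± 0.308 over the 29 deeper ones, so the shallow cells, where 1 read gives a high OE, carried much of that mean.
LBR and LMNA lie on the same chromosome and could be compared in the same cells. The surroundings of LBR were higher in 14 cells, equal in 18 and lower in 0, by 8.44 ± 12.7 points.

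TMPO encodes the lamina-associated polypeptides 2, of which some isoforms sit in the inner membrane and bind B-type lamins and another is free in the nucleus. It was the member whose surroundings touched the lamina most. Its gene bin, chr12:98900001-99000000, had no contact in any cell, while 43.4% ± 27.9 of its surroundings were in contact, with a lowest share of 0, a median of 55% and a highest share of 80%. The surroundings were above the share of the cell in 22 of 32 cells, by 17.1 points on average (SE 4.17, limma adjusted p = 2.97e-04), and 20.8 points above that of chromosome 12, which was 22.6% (limma adjusted p = 1.79e-05). Since the gene bin was at 0 in every cell, gene bin minus surroundings is that share with its sign turned, -43.4 points (SE 4.85). The same holds for LEMD3 and LMNB1: their sign was fixed and the limma fit asks only whether the surroundings were in contact. These 3 of the 4 fitted genes were called lower, as were 19.0% of 21413 places, and nothing further is read from that count. With 3 bins on each side LMNB1 was no longer called (-2.08 points, limma adjusted p = 0.20).
The gap around TMPO was narrow and had contacted chromatin on both sides. No cell was in contact in the 3 bins from 98800001 to 99100000, which is 0.3 Mb. The bins 0.2 Mb before and 0.2 Mb after the gene were in contact in 9 cells each, and those 0.3 Mb before and after it in 19 and 20 cells. A domain of frequently contacted bins ended at 98700000 (1.7 Mb long, mean contact frequency 62.9%, mean OE 2.31 ± 1.95). The next began at 99200001 (1.3 Mb long, 71.4%, mean OE 2.34 ± 1.61). In the RefSeq gene order NEDD1 precedes TMPO and SLC25A3 follows it.
Both flanks of TMPO had a contact in many cells, a flank being counted when any of its 5 bins was in contact. The cells are diploid, so the 2 flanks may have been in contact on different copies of the chromosome. The flank before the gene had a contact in 25 cells, the flank after it in 26 and both in 22. That joint count was not set against other places. In those 22 cells the OE of the gene bin had a median of 0 and a highest value of 0.598. That it stayed below 1 there follows from its lack of contact in all 32 cells and is no separate result. The share in contact was 42.5% ± 31.2 before the gene and 44.4% ± 29.5 after it, a difference of 1.88 points that did not pass the test (SE 4.16, limma adjusted p = 0.711). Across the 29 deeper cells the 2 flank shares had a Pearson r of 0.652, given as a description of cells that share their library's depth and overall contact share. By share of the surroundings, 15 cells lay at 0 to 30%, 0 at 40% and 17 at 50% or more. The gene bin had a lower OE than the mean of its surroundings in 28 of the 29 deeper cells. The same count was 28 for LMNB1, 27 for LEMD3 and 20 for LBR, and it was not taken over all bins.
Stretches without contact that have a frequently contacted bin within 0.5 Mb on both sides were sought after the values of TMPO had been seen. There were 112 of them among 1596 stretches (7.02%), holding 3.26% of the bins never in contact, and TMPO was the 1 member in such a stretch. With 3 bins on each side in place of 5, the surroundings of TMPO were no longer called higher than the cell (3.36 points, limma adjusted p = 0.381) or than chromosome 12 (7.07 points, limma adjusted p = 0.0644), and with 20 bins they were higher by 29.6 points.

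**Figure D3:**
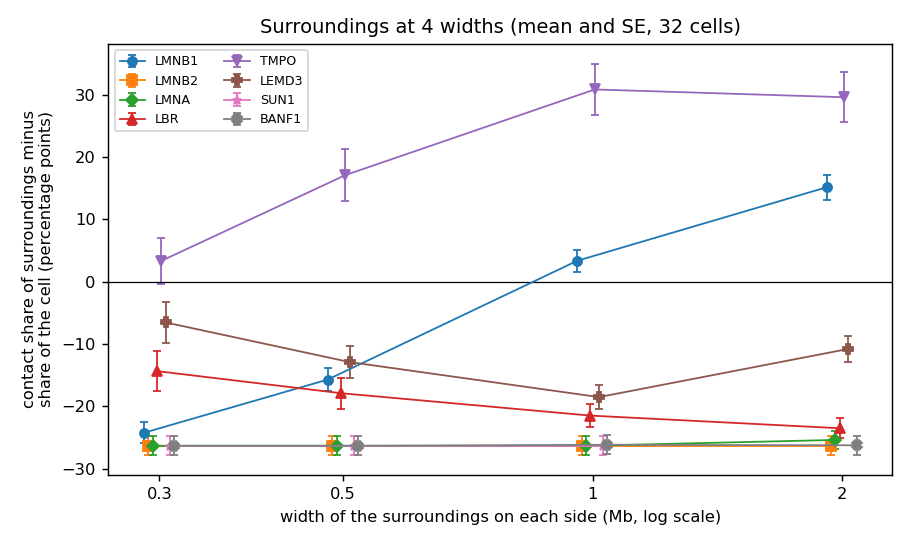
Difference between the contact share of the surroundings and that of the cell, in percentage points, by the width taken on each side in Mb, with bars for the standard error of the limma fit. LMNB1 goes from -24.2 to 15.2 points and TMPO from 3.36 to 29.6, while the genes without contacts nearby stay near -26.3.

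LEMD3 encodes MAN1, an inner membrane protein with a LEM domain that binds the product of BANF1 and restrains SMAD signalling. Its gene bin, chr12:65500001-65600000, and the bin after it were in contact in no cell, a stretch of 0.2 Mb. The share of its surroundings was 13.4% ± 14.5, with a lowest value of 0, a median of 10% and a highest value of 60%, in cell 35. It was -12.9 points from the share of the cell (SE 2.63, limma adjusted p = 3.09e-05) and -9.18 points from that of chromosome 12 (limma adjusted p = 3.30e-04). With 3 bins on each side the first of these was -6.53 points (limma adjusted p = 0.0606), and when any read counted it was -2.38 (limma adjusted p = 0.453). The second was -2.82 points with 3 bins (limma adjusted p = 0.351) and -4.43 with an OE limit of 0.5 (limma adjusted p = 0.124).
Near LEMD3 the contacts lay mostly after the gene, the side of MSRB3 in the RefSeq gene order. The flank after it had a share of 21.3% ± 20.9 and the flank before it 5.63% ± 11.6, a difference of 15.6 points (SE 3.04, limma adjusted p = 4.74e-05). The flank after was higher in 16 cells and the flank before in 0. Its contacts were those of a small island: 14 cells were in contact in the bin 0.2 Mb after the gene, 16 at 0.3 Mb and 2 at 0.4 Mb. The bin with 16 cells, chr12:65800001-65900000, was the only frequently contacted one within 0.5 Mb and had a mean OE of 1.49 ± 1.67. In 7 cells both flanks had a contact, and the OE of the gene bin was 0.864 at most in them.
TMPO and LEMD3 lie on the same chromosome. In the same cells the surroundings of TMPO were higher by 30.0 ± 32.0 points, in 24 cells, with LEMD3 higher in 4 and no difference in 4.

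SUN1 encodes a protein of the inner membrane that joins nesprins across the space of the envelope, which couples the nucleus to the cytoskeleton. Its gene bin, chr7:800001-900000, lies near the start of chromosome 7, and no bin from the start to 3300000 was in contact in any cell. The nearest frequently contacted bin was 7.7 Mb away, and the nearest with a contact frequency of 80% or more was 77.0 Mb away. Against chromosome 7, of which 20.7% was in contact, its surroundings were at -20.7 points (limma adjusted p = 5.15e-15).
BANF1 encodes barrier-to-autointegration factor, which bridges DNA and LEM-domain proteins such as the product of LEMD3. Its gene bin, chr11:65700001-65800000, lies in a stretch of 3.5 Mb without contact, from 63200001 to 66700000, with the nearest frequently contacted bin 7.6 Mb away. Against chromosome 11, of which 29.2% was in contact, its surroundings were at -29.2 points (limma adjusted p = 9.44e-16). For SUN1 and BANF1 this value is the share of the chromosome with its sign turned, so its sign was fixed. SUN1 and BANF1 were alike in having no contact within 0.5 Mb.

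**Figure D4:**
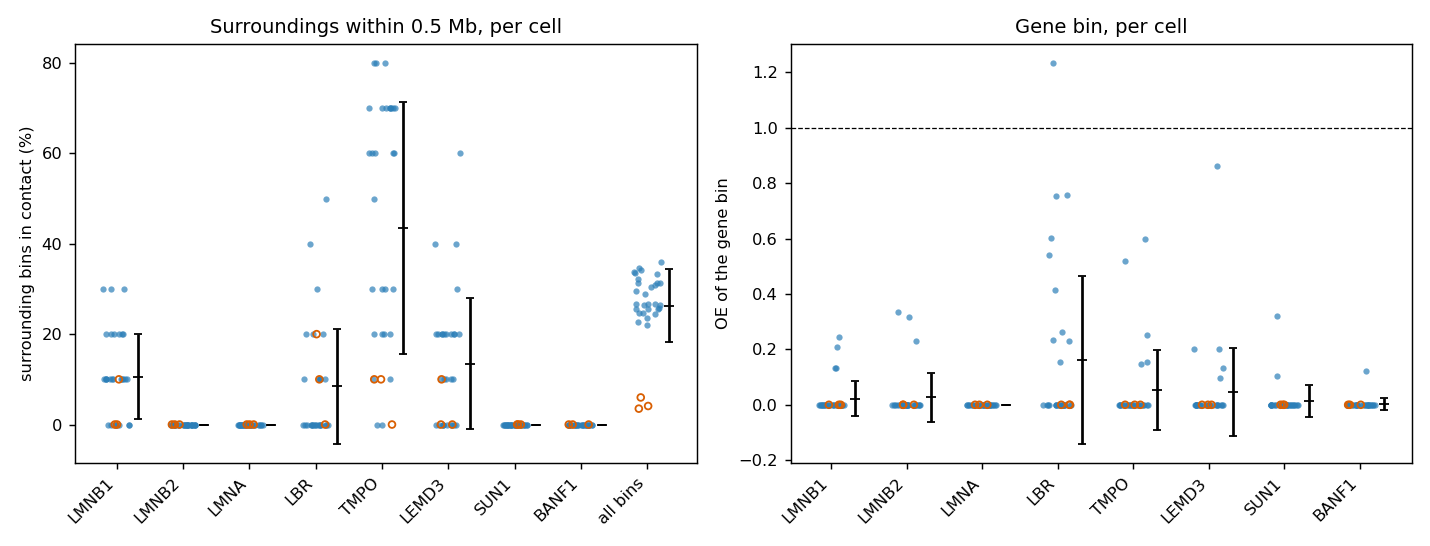
Share of the surroundings in contact in every cell, in percent, for each gene and for all bins of the cell (left), and OE of the gene bin in every cell with a dashed line at the contact limit of 1 (right), with the mean and SD and the 3 shallow cells as open circles. TMPO spreads from 0 to 80%, LBR and LEMD3 reach 50% and 60% in single cells, and LMNB2, LMNA, SUN1 and BANF1 are at 0 throughout.

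By the share of their surroundings the genes followed the order TMPO, LEMD3, LMNB1, LBR and then the 4 genes at 0. LEMD3 and LMNB1 were 2.81 ± 15.9 points apart, with LEMD3 higher in 12 cells and LMNB1 in 11. LMNB1 and LBR were 2.19 ± 16.2 points apart, with LMNB1 higher in 13 cells and LBR in 6. Both differences were small beside the SD between cells, and neither was tested. By distance to the nearest frequently contacted bin the order was TMPO and LEMD3 at 0.3 Mb, LMNB1 at 0.5 Mb, LBR at 4.8 Mb, BANF1 at 7.6 Mb, SUN1 at 7.7 Mb, LMNA at 14.2 Mb and LMNB2 at 19.9 Mb. For LMNA, LBR and LEMD3, whose positions lie on a border, surroundings, sides and distances were taken only from the bin before it. The tie of TMPO and LEMD3 holds only for that bin. Thus 3 of the 8 genes had such a bin within 0.5 Mb, as did 46.2% of all bins and 8.41% of the 11165 bins never in contact.
For the 4 genes with contacts nearby, the most alike genes of both lists on other chromosomes were sought by the Pearson r of the mean OE over their 11 bins across the 29 deeper cells. For TMPO these were NUP153 (0.601), NUP98 (0.568) and SUN1 (0.425), and without the 2 cells farthest from the median of TMPO these r were 0.110, 0.258 and -0.190. For LEMD3 they were HDAC3 (0.754), NUP160 (0.536) and TMEM201 (0.367), which became 0.464, 0.381 and 0.426. For LMNB1 they were LMNA (0.465), NRM (0.423) and CBX5 (0.395). Without the 2 cells farthest from the median of LMNB1 these were 0.454, 0.396 and 0.416. The windows of LMNA and NRM held no contact in any cell, so these r rest on OE values below 1. For LBR they were SYNE3 (0.388), EMD (0.378) and CBX3 (0.310). Without the 2 cells farthest from the median of LBR, its r became 0.0588 with SYNE3, 0.322 with EMD and 0.157 with CBX3. The values for TMPO and those of LBR with SYNE3 and CBX3 thus rested largely on 2 cells. The r are descriptions over cells that share depth, and many of the partners' windows hold few reads. Each r was also picked for being among the highest of the genes compared, so its size was not tested.

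Other genes of the nuclear envelope were set beside these 8 from a list of 24, which holds further membrane proteins, nesprins, nuclear pore proteins and heterochromatin proteins. Of their gene bins, 22 lacked contact in every cell and were called less often in contact, beside 54.5% of all bins. The other 2 belong to nesprins, the proteins that join SUN proteins to the cytoskeleton: SYNE2 was in contact in 11 cells (34.4%, adjusted p = 0.331 by the Poisson-binomial test) and SYNE1 in 6 (18.8%, adjusted p = 0.438). The positions of these 24 genes came from general knowledge and were not checked against an hg19 annotation, and those of SYNE1 and NUP35 lie on the border of 2 bins. In the bin after the border SYNE1 was in contact in 26 cells (81.3%) and was called in contact more often (adjusted p = 4.31e-10 by the Poisson-binomial test, beside 31.5% of all bins). NUP35 was there in contact in 6 cells (18.8%) and was not called (adjusted p = 0.438), which leaves 21 of the 24 called less often. The surroundings were lower than the share of the cell for 21 of the 24 and higher for 3, beside 54.3% and 35.5% of all places. Those 3 were NUP35, a pore scaffold protein (share 52.2% ± 24.3, 25.9 points above the cell, limma adjusted p = 1.06e-08), SYNE1 (50.9% ± 26.3, 24.6 points, limma adjusted p = 2.28e-07) and TPR, a protein of the pore basket (42.8% ± 22.5, 16.5 points, limma adjusted p = 2.10e-05). TPR thus had, like TMPO, a gene bin at 0 and a contacted neighbourhood, and so did NUP35 in the bin before its border but not in the bin after it. SYNE2 was the reverse, with a gene bin 27.2 points above its surroundings (limma adjusted p = 4.38e-03), the 1 gene called so in either list, beside 12.2% of all places. For genes on a border this comparison was read only for the bin before it, so SYNE1 in the bin after its border is not covered. Stretches without contact that had a frequently contacted bin within 0.5 Mb on both sides held NUP35 (0.1 Mb, in the bin before its border) and NUP160 (4.5 Mb) of the 24.

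**Figure D5:**
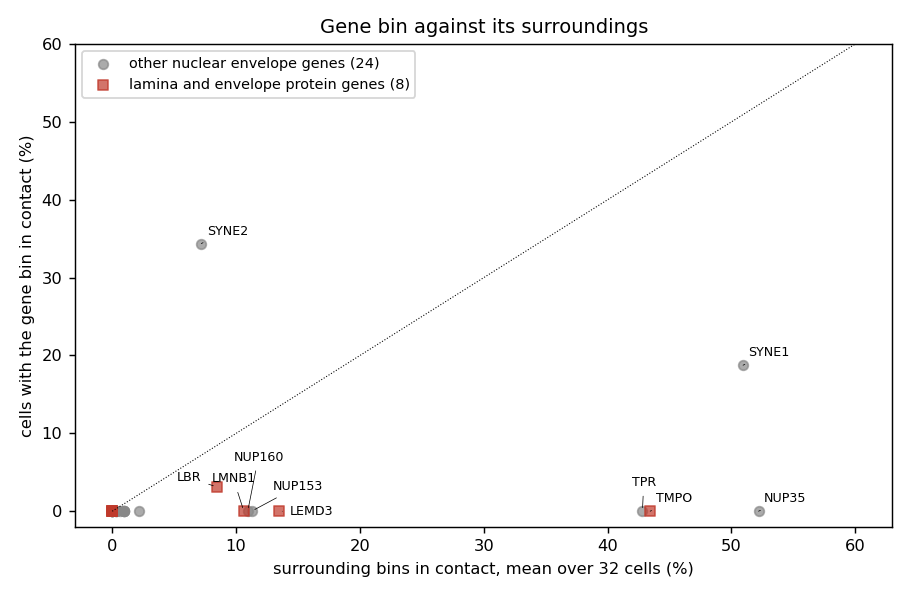
Contact frequency of the gene bin, in percent of 32 cells, against the mean share of its surroundings in contact, in percent, for the 8 genes (squares) and the 24 others (circles), with genes on a bin border drawn by the bin before it. TMPO, TPR and NUP35 lie at 0 for the gene bin with shares of 43.4%, 42.8% and 52.2% around it, and SYNE2 lies above the line of equality at 34.4%.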

How the data were processed

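Per the labels' protocols, cells were sorted singly, DNA was cut with DpnI at methylated GATC sites, and adaptor-ligated fragments were amplified in 21 extension steps. Cutadapt, Bowtie2 2.1.0 and the build hg19 are named in the submitters' processing notes. Per the file headers, the authors deposited a ratio of observed to expected reads per 100-kb bin and cell. How the expectation was made and whether duplicates were removed is not given in the sources used here.

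Of 30376 bins, 3792 without values were left out. Reads per bin were recovered from the steps between low ratios, taken as whole within 0.01 reads. A contact was an OE of 1 or more, and the surroundings were 5 bins on each side. Counts of cells in contact per bin were compared with the sum of the cells' contact shares by a two-sided Poisson-binomial test over 26584 bins. Differences in percentage points were tested across 32 cells with limma 3.58.1 (R 4.3.3), fitted at every place of the genome where they varied between cells and each flank had at least 3 bins with values. P-values were adjusted by Benjamini-Hochberg over all places, at a threshold of 0.05. Both tests were also run on simulated data, in which bins were drawn independently and few were changed. The real bins lie in domains and most were called, so that run does not show how the tests behave here. Positions of the 8 members are the hg19 positions of the rule, those of the 24 other genes are midpoints from general knowledge, not checked against an hg19 annotation, and a position on a border was put in the bin before it. All 8 members are named. Of the 24 others those called more often or among the 3 highest are named, and otherwise the most alike genes. Gene names and promoters came from RefSeq GRCh38.p14, used for names, order and sequence. The members and lists were chosen with earlier results of these data known. Alternatives were other OE limits, cells, widths, bins and the share of the same chromosome.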

Additional observations from a re-analysis of the deposited data

How the results depend on the processing

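Under the alternatives, 233 values for single genes kept direction and call, 12 lost the call, 1 gained it and 7 turned, while 58 counts of genes stayed within 1.5 times and 6 moved. The 233 include values whose sign was fixed by an absence of contact. These are found for the surroundings of LMNB2, LMNA, SUN1 and BANF1, and for gene bin minus surroundings of LMNB1, TMPO and LEMD3. Their kept direction says nothing about the settings. With 3 bins on each side, 0 genes had surroundings called higher than the cell or than their chromosome and 1 gene was higher before than after; with 20 bins, 2 genes were higher than the cell, 2 higher than their chromosome and 2 higher after the gene. The surroundings of LMNB1 turned to 3.36 (10 bins) and 15.2 points (20 bins), and to 6.92 against chromosome 5 (20 bins). These wider windows reached the domain before it and, with 20 bins, also frequently contacted bins after it. LEMD3 against chromosome 12 turned to 1.5 when any read counted as a contact, the side difference of TMPO to -6.25 (OE limit 2) and -0.9375 (20 bins), and LBR against its surroundings to 0.3125 (20 bins); none of these 4 was called, and the cause was not tested. When any read counted, the gene bin of LBR (31.3% of cells, adjusted p = 0.152) and the surroundings of LMNB1 (-1.44 points) and LEMD3 (-2.38 points) were not called. The surroundings of SUN1 could not be fitted with 20 bins, and LMNA, with no read, had no expected reads to filter on. No paired analysis was possible because all cells belong to 1 group, so no replicate numbers pair samples across groups; the differences within a cell are part of the tests themselves. Depth limits the 3 shallow cells most; without them the side and call of the 8 genes' surroundings were the same.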
